A study of Mus musculus with 2 samples.

Results

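Genes of the interferon response, of the p200 protein family and of class I antigen presentation were compared between 1F9 cells carrying an active E47 fusion and 1F9 cells carrying a fusion without the activation domain. The set comprises 40 genes, given by symbol. Of these, 31 had a probe under their symbol in the array's annotation, out of 10208 genes named there, and each had 1 probe. The other 9 (Ifi203, Mx1, Mx2, Oas2, Bst2, Ifi35, Ifi44, Ifih1 and Xaf1) had no named probe in that annotation and were not analysed here.

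1F9 is a mouse line taken from a thymoma that arose in an E2A-deficient animal, so both groups are E2A -/- and lack E12 and E47, the basic helix-loop-helix (bHLH) factors that E2A encodes. The E47-ER group received a retrovirus for E47 joined to an oestrogen receptor part, which 4-hydroxytamoxifen switches on. The bHLH-ER group received the same kind of virus with the bHLH region of E47 joined to that receptor part, without the N-terminal transactivation domain. In both groups the drug was given for 6 hours, starting 1 day after infection, and infected cells were isolated on magnetic beads through the human CD25 that both viruses encode. Each group is 1 single-colour (Cy3) array of polyA RNA from 1 cell line, and the titles of the samples assign the arrays, since the longer descriptions of both name the E47 fusion. Uninfected cells, cells without the drug and replicate cultures were not analysed here. The number of arrays limits the precision, and no p-value, standard error or SD between cultures exists for any difference below.

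Interferons are secreted proteins that bind paired receptor chains and act through JAK kinases and STAT factors. Type I interferon brings STAT factors and Irf9 to response elements of antiviral genes, while type II interferon acts through other elements and strongly raises guanylate-binding proteins and the genes that load peptides onto class I molecules. The p200 proteins are interferon-inducible proteins that bind DNA and are tied to growth control and innate sensing. E47 binds DNA at E boxes, and in thymocytes E proteins hold cells at developmental checkpoints.

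Of the members with intensities above the array median, only Ifi202b (lower with E47-ER) and Isg20 (higher with E47-ER) differed by 2-fold or more. The windows before their starts are shown because E47 acts at E boxes. The sequences are RefSeq's (GRCm38.p6) and run from 250 bases before to 50 bases after a gene start. The first lies at chr1:173982795-173983094 on the minus strand, the second at chr7:78913985-78914284 on the plus strand, and capitals mark every E box (CANNTG).
Ifi202b: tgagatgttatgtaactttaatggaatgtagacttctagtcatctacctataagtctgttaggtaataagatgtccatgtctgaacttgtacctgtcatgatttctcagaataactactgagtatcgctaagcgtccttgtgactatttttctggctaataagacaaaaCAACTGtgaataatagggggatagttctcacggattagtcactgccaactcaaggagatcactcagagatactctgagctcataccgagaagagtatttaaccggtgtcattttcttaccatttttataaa
Isg20: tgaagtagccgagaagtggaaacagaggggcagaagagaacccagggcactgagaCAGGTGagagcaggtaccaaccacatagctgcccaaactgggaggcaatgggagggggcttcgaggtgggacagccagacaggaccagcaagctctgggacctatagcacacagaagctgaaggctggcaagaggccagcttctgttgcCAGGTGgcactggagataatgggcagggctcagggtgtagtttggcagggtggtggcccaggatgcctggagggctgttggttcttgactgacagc

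The Ifi202b window held 1 E box, CAACTG at position -81 (the first transcribed base counted as 0). The Isg20 window printed here held CAGGTG at positions -195 and -46. RefSeq lists 3 starts for Isg20, and of their windows only the one printed held CAGGTG. The shares given below are per window, so a gene with 3 windows has more room for a match. The window of the most upstream one held CATGTG at position -236, and that of the middle one held no E box. Such matches are common: CANNTG stood in 72.3% of the 32851 RefSeq promoter windows of this length, and CAGGTG, which is 1 form of CANNTG and was searched on both strands as all motifs were, in 20.2%. For 28 of the 31 members a window was found (37 windows in all), but not for Ifi204, Tap2 and Usp18. An E box stood in 62.2% of these windows, CAGGTG in 18.9% and CAGCTG, another form of it, in 8.11%, against 16.3% of all windows for CAGCTG. The core of the interferon-stimulated response element (GAAA, any 2 bases, GAAA) stood in 24.3% of the members' windows and 3.44% of all windows. TTCNNNGAA, a form of site that STAT factors bind, stood in 27.0% of the members' windows and 8.30% of all windows. The members were listed as interferon genes and some have several windows, so these higher shares are not read as a result. No window of Ifi202b or Isg20 held the core of the response element, whereas the Ifi202b window and the most upstream Isg20 window each held 1 TTCNNNGAA, at position -148 for Ifi202b and -73 for Isg20. All windows are those of the reference build, and the positions given are positions in it. Whether the cell line carries the same sequences, at Ifi202b or elsewhere, was not tested. A match of letters is not a binding site, and no binding was measured.

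Levels are given as the deposited scaled intensity, which has no unit. Differences are log2 intensities, each centred on its array's median, E47-ER minus bHLH-ER, so that 1 is 2-fold higher and -1 is 2-fold lower with E47-ER. The array medians were 1.03 for E47-ER and 1.04 for bHLH-ER over the 19621 probes with a positive value on both. A gene is called measured where the mean of its 2 log2 levels was no lower than the median over probes, an intensity of about 1.03, and 5563 named genes were measured. Their median difference was 0.11. Among probes of similar level the robust SD of the difference lay between 0.18 and 0.28 for the levels of the measured members. The SD between probes of one gene was 0.20 over 55 measured genes with several probes. Both describe spread across probes within this pair of arrays, not between cultures. The T lineage identity of the line was seen on both arrays: all 16 T lineage markers with a named probe were measured, with summed intensities of 547 on the E47-ER array and 381 on the bHLH-ER array. Their differences went both ways, with 11 above 0 and 5 below, from -0.98 (Gata3) to 2.09 (Ptcra). Of markers of other cells, 1 of 13 myeloid, 4 of 8 dendritic cell, 4 of 8 B lineage, 1 of 9 NK and 1 of 6 fibroblast markers with a named probe were measured. Of all named genes, 5563 of 10208 were measured, so the dendritic cell and B lineage counts are near the general share.

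Which members stood above the array median is the first result. Of the 31, 17 were above it on both arrays, 1 (Gbp2) was above it on the E47-ER array alone, and 13 were below it on both. The 17 comprised both p200 genes with a probe (Ifi202b and Ifi204), the receptor chains Ifnar1, Ifngr1 and Ifngr2, the regulatory factors Irf1, Irf3, Irf4 and Irf9, the effectors Ifit2, Isg20 and Adar, the guanylate-binding gene Gbp3, and all 4 presentation genes (Tap1, Tap2, Tapbp and B2m). The 13 were Ifnar2, Irf2, Irf5, Irf7, Irf8, Ifit1, Ifit3, Isg15, Oas1a, Oasl1, Oasl2, Usp18 and Rsad2. The presentation genes were above the median throughout, while 8 of the 11 antiviral effectors with a probe were below it. In all, 18 of the 31 were measured, beside 5563 of the 10208 named genes. These shares are close, so nothing about the set is read from the split.

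**Figure D1:**
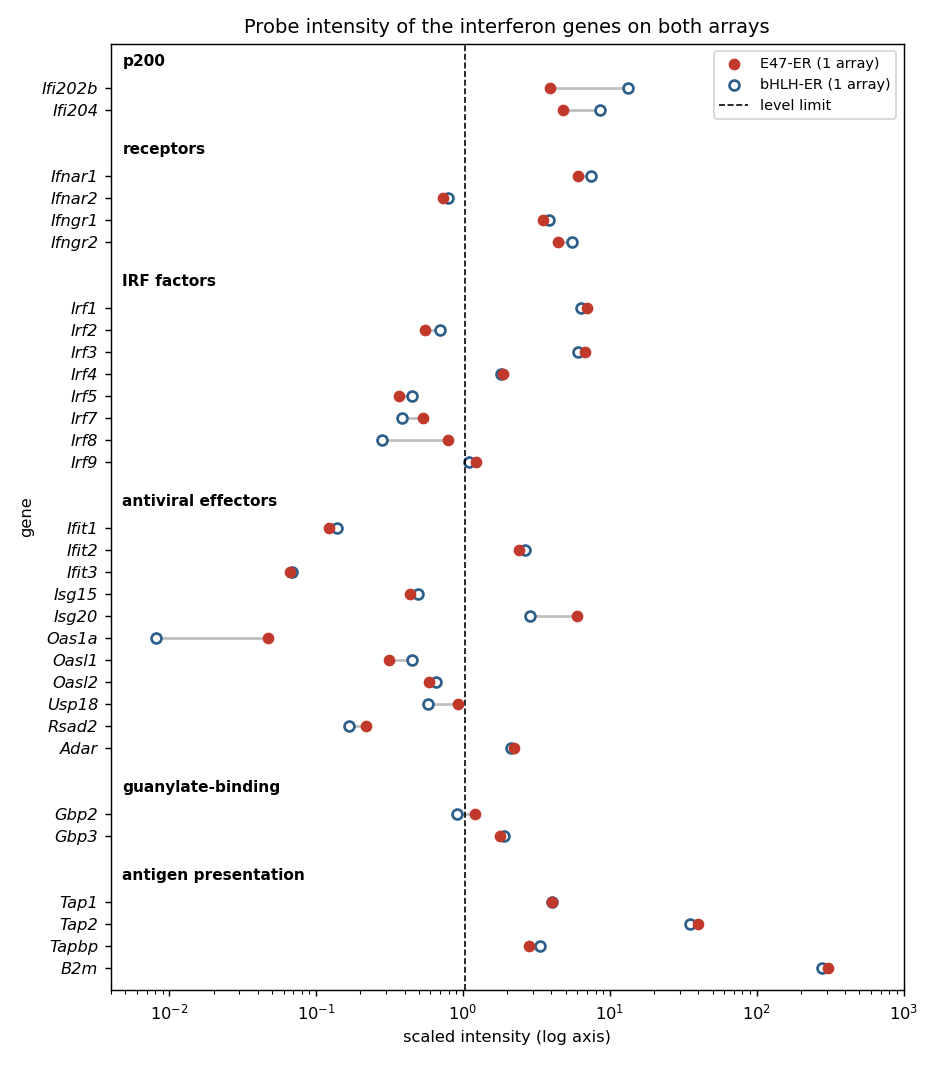
Scaled intensity (log axis) of the 31 members on the E47-ER array (filled) and the bHLH-ER array (open), 1 array each, by role; the dashed line is the level limit of about 1.03. Ifi202b and Ifi204 lie to the right of the line with the E47-ER point left of the bHLH-ER point, Isg20 shows the opposite order, and 13 members lie left of the line on both arrays.

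Among the 18 measured members, 1 was at least 2-fold higher with E47-ER (Isg20), 1 was at least 2-fold lower (Ifi202b) and 16 lay within 2-fold. Across all 5563 measured genes the corresponding shares were 1.35% for higher and 0.270% for lower, and with a single member in each direction nothing is read from the counts. At 1.5-fold, 1 member was higher and 2 were lower (Ifi202b and Ifi204), against 5.41% and 1.24% of measured genes. Differences were above 0 for 10 of the 18, beside 66.7% of measured genes, and the members' median was 0.04 beside 0.11. Relative to that median of all measured genes, 7 of the 18 lay above it.

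The p200 genes were the lower end of the group. Ifi202b (Entrez gene 26388), which encodes p202, a p200 protein without a pyrin domain that in mouse limits DNA sensing by Aim2, had an intensity of 3.90 on the E47-ER array and 13.3 on the bHLH-ER array. It was 3.38-fold lower with E47-ER, a log2 difference of -1.76, where probes of its level had a robust SD of 0.25. Of the 5563 measured genes it had the lowest difference, and both intensities stood clear of the array median. Ifi204 (Entrez gene 15951), which encodes p204, a p200 protein with roles in differentiation and DNA sensing in mouse, had intensities of 4.83 with E47-ER and 8.59 with bHLH-ER. It was 1.76-fold lower with E47-ER (-0.82), the 31st lowest of the measured genes, and did not reach 2-fold. Both p200 genes with a probe were therefore dimmer with E47-ER, Ifi202b by more. Transcripts of this family are closely related, and the sources used here do not say whether either probe also detects other p200 transcripts, so the pair may not be independent readings. In bulk RNA, fewer cells expressing a gene and less RNA per cell cannot be told apart.

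In gene order on mouse chromosome 1 (RefSeq), Ifi204 and Ifi202b lie within 1 cluster of p200 genes, 4 protein-coding genes apart, with Ifi203 directly beside Ifi202b. No other gene of the cluster had a named probe here. Of the 15 protein-coding genes on either side of Ifi202b, the only other one that was measured was Olfr433, an olfactory receptor gene. Its intensities were 2.06 with E47-ER and 1.97 with bHLH-ER, a difference of 0.07. Whether the lower values extend beyond the p200 genes was not tested, and 1 reading of an olfactory receptor gene cannot show it.

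The receptor chains, through which cells receive interferon, had slightly lower readings with E47-ER on this pair of arrays. Ifngr2, the signalling chain of the interferon gamma receptor, had 4.42 with E47-ER and 5.52 with bHLH-ER (-0.31). Ifnar1, a chain of the type I receptor, had 6.10 with E47-ER and 7.47 with bHLH-ER (-0.28). Ifngr1, the ligand-binding chain of the interferon gamma receptor, had 3.50 with E47-ER and 3.82 with bHLH-ER (-0.11). All 3 measured chains lay below 0, at 331st, 393rd and 1033rd lowest of the measured genes, and none differed by 1.5-fold. Among all measured genes 66.7% lay above 0, and 5.41% were higher and 1.24% lower by 1.5-fold. With 3 chains nothing is read from these counts. Their sizes were of the order of the robust SD at their level (0.25 to 0.27). Ifnar2, the second type I chain, was under the level limit, with 0.728 with E47-ER and 0.795 with bHLH-ER.

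The interferon regulatory factors that were measured differed little. Irf1, which is induced by interferon gamma and activates class I presentation genes, had 6.99 with E47-ER and 6.37 with bHLH-ER (0.15). Irf3, which switches on interferon beta after viral sensing, had 6.75 with E47-ER and 6.05 with bHLH-ER (0.17). Irf9, a DNA-binding partner of STAT factors, had 1.23 with E47-ER and 1.09 with bHLH-ER (0.18). These values sit close to the median of all measured genes. Irf4, a lymphocyte factor linked to activation and plasma cells, had 1.87 with E47-ER and 1.81 with bHLH-ER (0.06). All 4 were above 0 in this scaling, but Irf4 was at -0.05 when the arrays' 75th percentiles were set equal.

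The other 4 regulatory factors were under the level limit on both arrays. Irf8, a factor of myeloid, dendritic and B cells, had 0.786 with E47-ER and 0.282 with bHLH-ER, a difference of 1.49, where probes of its level had a robust SD of 0.32. Its difference was 0.73, under 2-fold, when 0.5 was added to all intensities before taking logs. Among named genes under the limit, 18.9% differed by 2-fold in either direction. Beside it, of the 13 myeloid markers with a named probe only Itgam was measured, with 1.44 on the E47-ER array and 0.866 on the bHLH-ER array. The summed intensity of the myeloid markers was 3.11 with E47-ER and 2.57 with bHLH-ER. That of the dendritic cell markers was 14.5 with E47-ER and 18.4 with bHLH-ER, and that of the B lineage markers 20.6 with E47-ER and 20.9 with bHLH-ER. These sums hide opposite differences: in each of the 2 lists, 1 measured marker was above 0 and 3 were below it. The B lineage marker above 0 was Vpreb1, with 4.36 with E47-ER and 2.14 with bHLH-ER (1.04). The part of all these markers in the Irf8 value was not tested. Irf7, the factor that amplifies type I interferon, had 0.536 with E47-ER and 0.382 with bHLH-ER (0.50, and 0.24 with 0.5 added to all intensities). Irf5, a factor downstream of Toll-like receptors, had 0.369 with E47-ER and 0.452 with bHLH-ER (-0.28). Irf2, which can oppose Irf1, had 0.555 with E47-ER and 0.7004 with bHLH-ER (-0.32). All of these are dim readings, and apart from Irf8 they lay within 2-fold.

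Of the antiviral effectors, Isg20 stood apart. Isg20 (Entrez gene 57444), an exonuclease that degrades single-stranded RNA, had 5.97 on the E47-ER array and 2.86 on the bHLH-ER array. It was 2.11-fold higher with E47-ER, a log2 difference of 1.08 where probes of its level had a robust SD of 0.27, and it ranked 57th highest of the measured genes. It lies just past 2-fold and was just under it in other scalings (0.97 with equal 75th percentiles, 0.99 after quantile normalization and 0.9998 after loess on level). Ifit2, a member of the tetratricopeptide family that blocks translation of viral RNA, had 2.41 with E47-ER and 2.63 with bHLH-ER (-0.11). Adar, which edits adenosine to inosine in double-stranded RNA, had 2.22 with E47-ER and 2.13 with bHLH-ER (0.07, and -0.03 with equal 75th percentiles). Isg20 was thus alone among the 3 measured effectors in passing 1.5-fold.

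Several effectors often used as signs of a type I interferon response were dim on both arrays. This does not hold for all interferon-induced genes. Ifit2 was measured, as were 24 of the 39 genes with a named probe in the list of other interferon-induced genes below. Mx1, Mx2, Oas2, Ifi44 and Bst2 had no named probe. Isg15, a ubiquitin-like modifier, had 0.439 with E47-ER and 0.497 with bHLH-ER. Ifit1, which binds viral RNA caps, had 0.122 with E47-ER and 0.138 with bHLH-ER. Ifit3, its partner, had 0.0661 with E47-ER and 0.0687 with bHLH-ER. All 3 readings were slightly lower with E47-ER in this scaling, but the Ifit3 difference was above 0 after quantile normalization (0.11), after loess on level (0.07) and with 0.5 added to the intensities (0.0043). Rsad2, the antiviral enzyme viperin, had 0.219 with E47-ER and 0.168 with bHLH-ER (0.40). Oasl1, of the oligoadenylate synthetase-like family, had 0.314 with E47-ER and 0.447 with bHLH-ER (-0.50). Oasl2 of the same family had 0.588 with E47-ER and 0.653 with bHLH-ER (-0.14). These differences go both ways, and with 0.5 added to all intensities they were smaller, at 0.12 for Rsad2 and -0.21 for Oasl1. Usp18, the protease that removes Isg15 and restrains the type I receptor, had 0.928 with E47-ER and 0.578 with bHLH-ER (0.70), against a robust SD of 0.27 at its level, and its difference was 0.42 with 0.5 added to all intensities. Oas1a, an oligoadenylate synthetase that activates RNase L, had 0.0470 with E47-ER and 0.00813 with bHLH-ER. Its difference of 2.55 comes from intensities near 0, where the robust SD was 2.33, and it was 0.12 with 0.5 added to the intensities. The 13 members under the limit had a median difference of -0.11, with 5 above 0 and 8 below it.

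**Figure D2:**
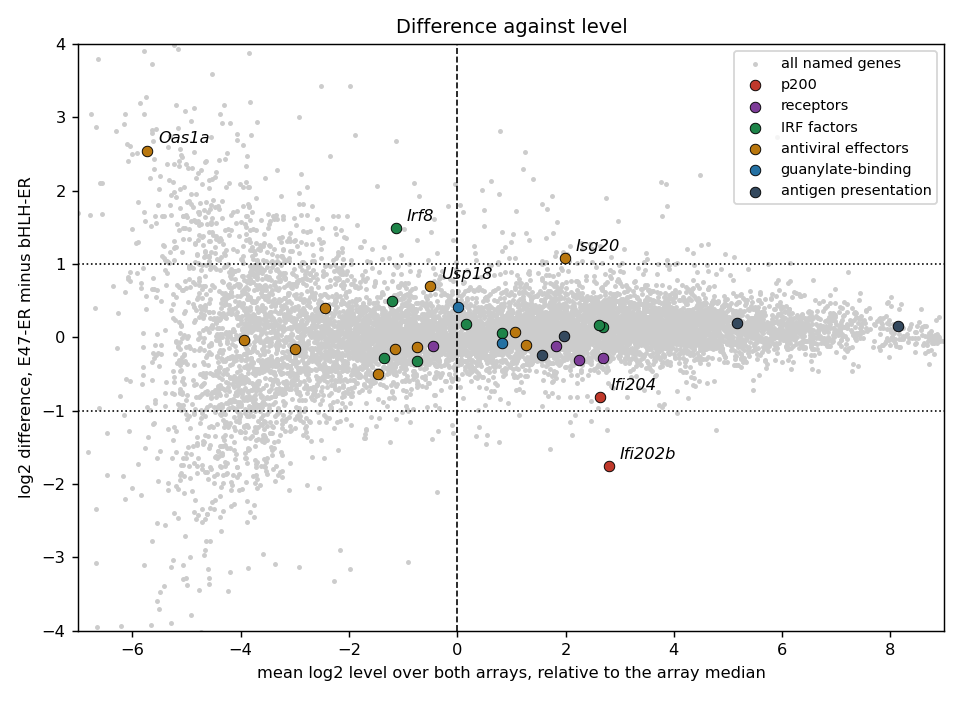
Log2 difference (E47-ER minus bHLH-ER) against mean log2 level relative to the array median, with 1 point per named gene; coloured points are the members by role, dotted lines mark 2-fold and the dashed line the level limit. Of 9942 genes 56 lie outside the axes. Ifi202b lies below all other measured genes, Ifi204 lies at their lower edge within 2-fold, and Isg20 lies just past the upper 2-fold line. Irf8 and Oas1a lie left of the limit, where the spread widens.

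The guanylate-binding genes, GTPases strongly induced by interferon gamma, lay near the limit. Gbp2 had 1.20 with E47-ER and 0.914 with bHLH-ER, a difference of 0.41, so it crossed the array median only on the E47-ER array. Gbp3 had 1.79 with E47-ER and 1.90 with bHLH-ER (-0.07). Neither reached 1.5-fold.

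The class I presentation genes were nearly level between the arrays. B2m, the light chain shared by all class I molecules, was bright, with 306 on the E47-ER array and 278 on the bHLH-ER array (0.15, where probes of its level had a robust SD of 0.18). Tap2, a chain of the peptide transporter, had 39.8 with E47-ER and 35.0 with bHLH-ER (0.20). Tap1, the other chain, had 4.05 with E47-ER and 4.06 with bHLH-ER (0.01, and between -0.10 and -0.06 under the scalings on the 75th percentile, quantiles and loess). Tapbp, the tapasin that bridges the transporter to class I molecules, had 2.80 with E47-ER and 3.34 with bHLH-ER (-0.24). None of the 4 differed by 1.5-fold, and their median was 0.08, close to that of all measured genes. Whether differences are compressed at the brightness of B2m was not tested.

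Members whose windows hold the core of the interferon-stimulated response element can be set beside their readings. There were 9 such genes, of which 6 (Ifit1, Ifit3, Irf2, Isg15, Oas1a and Rsad2) were under the level limit. The 3 measured ones were B2m (0.15), Gbp2 (0.41) and Gbp3 (-0.07), and none differed by 1.5-fold. Ifi202b and Isg20 were not among the 9. Ifi204, Tap2 and Usp18 had no window and could not be scored.

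Other genes of the same pathways were read from further lists, 122 genes in all, of which 57 were measured under the symbol listed. Among those 57, 3 were at least 2-fold higher with E47-ER and none was 2-fold lower, 38 lay above 0, and the median was 0.08. Of the 3, only Socs1 was above the array median on both arrays. Socs3 and H2-M3 passed the level limit only through the E47-ER array, so nothing is read from that count. Over all measured genes the shares were 1.35% for higher and 0.270% for lower at 2-fold and 66.7% above 0, with a median of 0.11, and the 38 are the same share as that background. The genes that carry the signal from interferon receptors were mostly level: of 11 measured, 2 were at least 2-fold higher and 9 were within 1.5-fold. Those 2 are the feedback inhibitors Socs1, which blocks JAK kinases below the interferon receptors, with 13.5 on the E47-ER array and 3.65 on the bHLH-ER array (1.90), and Socs3, an inhibitor of gp130 cytokine receptors, with 3.33 on the E47-ER array and 0.764 on the bHLH-ER array (2.14). Socs3 was below the array median with bHLH-ER and counted as measured only through its level with E47-ER, so nothing is read from the count of 2. The kinase genes Jak1 (0.16) and Tyk2 (-0.10) and the transcription factor genes Stat2 (0.27) and Stat3 (0.29), which act between receptor and promoter, were within 1.5-fold.

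Of 24 measured genes in the list of other interferon-induced genes, 1 was 1.5-fold higher, 1 was 1.5-fold lower and 22 were between, with a median of 0.04, beside 5.41% higher and 1.24% lower at 1.5-fold among all measured genes. Gbp4, a further guanylate-binding gene, had 2.998 with E47-ER and 1.67 with bHLH-ER (0.86). Slfn2, a Schlafen gene needed for T cell quiescence in mouse, had 1.33 with E47-ER and 2.40 with bHLH-ER, so it was 1.79-fold lower with E47-ER (-0.84). Among immunity-related GTPase genes, which interferon gamma induces, Ifi47 was at -0.06, Igtp at 0.02 and Irgm1 at -0.22. The immunoproteasome subunit genes, induced in the same way, stood at -0.01 (Psmb8), 0.05 (Psmb9) and -0.24 (Psmb10), and none of these 6 genes differed by 1.5-fold. None of the 6 sensors and adaptors of interferon production measured under the symbol listed differed by 1.5-fold. Ikbke, a kinase that activates Irf3, had the largest difference of them (-0.25). The DNA sensor gene Cgas was listed under its older symbol Mb21d1 and so left out of the counts, but it was measured (0.07). The interferon genes themselves were under the limit, with Ifnb1 at 0.244 on the E47-ER array and 0.191 on the bHLH-ER array and Ifna4 at 0.326 on the E47-ER array and 0.325 on the bHLH-ER array.

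Partners of the presentation genes in the class I pathway included several past 1.5-fold. Of 13 measured, 3 were at least 1.5-fold higher with E47-ER and 1 was 1.5-fold lower, with a median of 0.19. Among all measured genes 5.41% were higher and 1.24% lower by that fold. H2-M3, a non-classical class I molecule that presents formylated peptides in mouse, had 2.45 with E47-ER and 0.864 with bHLH-ER, so it was 2.87-fold higher (1.52). It was below the array median on the bHLH-ER array and counted as measured only through its level with E47-ER, so nothing is read from the count of 3. H2-T10, a non-classical class I gene whose product is a ligand of some gamma delta T cells in mouse, had 209 with E47-ER and 114 with bHLH-ER (0.89). Mr1, which presents vitamin B metabolites, had 4.49 with E47-ER and 2.53 with bHLH-ER (0.84). Class I genes are similar enough in sequence that a probe may read several of them. Cd1d1, the lipid-presenting molecule that selects NKT cells, had 2.83 with E47-ER and 4.33 with bHLH-ER, so it was 1.52-fold lower with E47-ER (-0.60). The class I-like heavy chain genes thus differed in both directions. H2-T23, the gene of Qa-1, was at 0.19, and no named probe for H2-K1 or H2-D1 was found, so the classical heavy chains were not analysed here. Class II genes were mostly under the limit: 3 of 11 with a named probe were measured, none differed by 1.5-fold, and H2-Oa, part of a regulator of class II loading, had the largest difference of the 3 (-0.29).

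**Figure D3:**
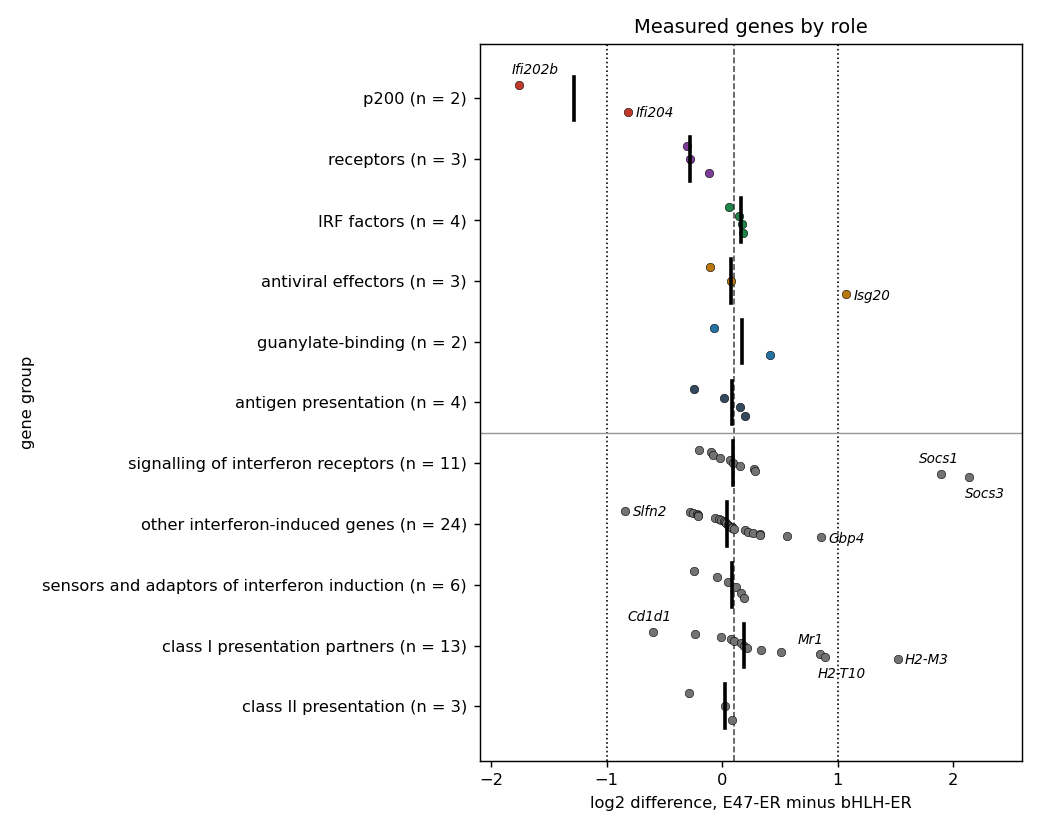
Log2 difference (E47-ER minus bHLH-ER) of the measured genes by role, with members above the grey line and related lists below it; bars are medians of the genes shown, the dashed line is the median of all measured genes (0.11), and dotted lines mark 2-fold. Genes that differed by at least 1.5-fold are named: Ifi202b, Ifi204, Slfn2 and Cd1d1 are to the left, and Isg20, Socs1, Socs3, Gbp4, Mr1, H2-T10 and H2-M3 to the right.

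How far these differences depend on scaling was examined for each measured member. Ifi202b stayed between -1.87 and -1.64 and Ifi204 between -0.92 and -0.76 over 5 computations of the difference (median scaling, equal 75th percentiles, quantile normalization, loess on level and the offset of 0.5). The 3 measured receptor chains stayed below 0 in all 5, but this says little. Equal 75th percentiles, quantile normalization and loess lowered the median of all measured genes from 0.11 to -0.0023, 0.03 and 0.02. The offset mainly shrinks differences, so a measured member already below 0 could hardly change sign. Isg20 stayed between 0.96 and 1.08, on both sides of 2-fold. Of the 18, 15 kept their sign, and Irf4, Adar and Tap1, all close to 0, did not.

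**Figure D4:**
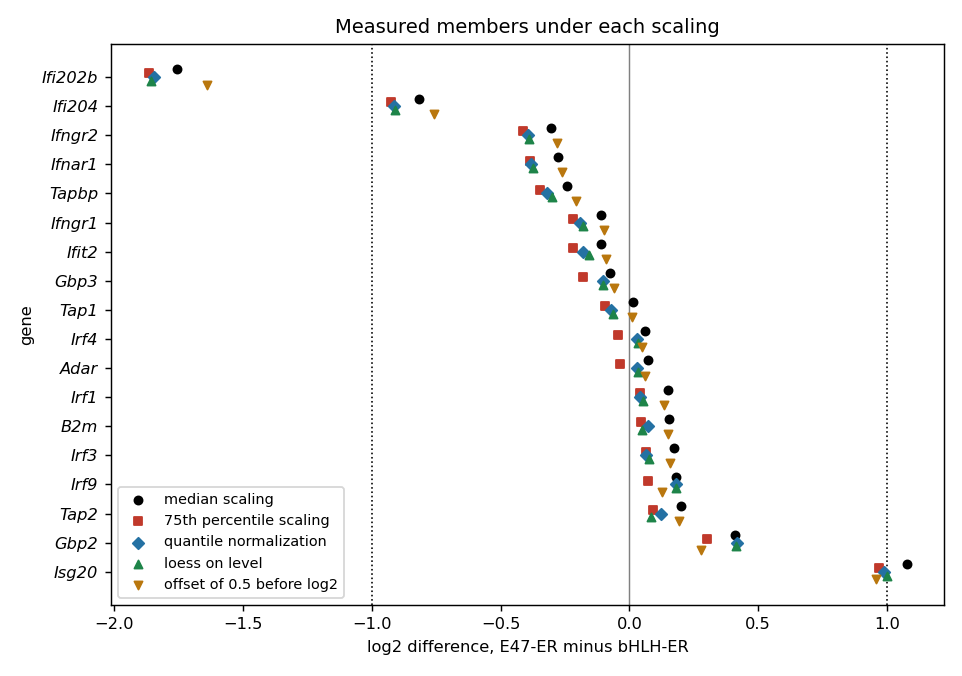
Log2 difference (E47-ER minus bHLH-ER) of the 18 measured members under 5 computations, with 1 marker per computation and dotted lines at 2-fold. Ifi202b is left of the lower line in all 5, Isg20 is past the upper line only under median scaling, and Tap1, Irf4 and Adar change side of 0 between computations.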

How the data were processed

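Values were 1 intensity per probe and array, deposited by the authors on a linear scale with medians near 1; the sources used here do not give their background and scaling methods. Of 20289 probes, 668 lacked a positive value on an array and were left out. The median log2 intensity of the remaining probes was subtracted on each array, and probes of one gene were averaged (Python 3.11.15, pandas 2.3.3, numpy 2.4.6, statsmodels 0.14.6 for loess). Symbols came from the platform annotation, checked by Entrez gene ID in RefSeq (GRCm38.p6), and promoter windows from the same build. With 1 array per construct no test was run; differences of 2-fold and 1.5-fold are counted beside the share among all measured genes. All members with a probe are described. From each related list up to 3 measured genes per direction past 1.5-fold are named, or the one furthest from 0. Jak1, Tyk2, Stat2, Stat3, Ifi47, Igtp, Irgm1, Psmb8, Psmb9, Psmb10, Ifnb1, Ifna4, Cgas, H2-T23 and the neighbour Olfr433 were added after their values were seen. The members and lists were chosen with earlier results of these data known. The code was run on simulated data, with known folds added to normal noise of the spread seen on these arrays. That checks the arithmetic only, and not variation between cultures or which transcripts a probe detects. Alternatives were other scalings, an offset of 0.5, the brightest probe and level filters at the 25th and 75th percentiles or none.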

Additional observations from a re-analysis of the deposited data

How the results depend on the processing

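With 1 array per construct no array could be left out. No paired analysis was possible because each construct has 1 array and the labels carry no replicate numbers. The number of members at least 2-fold higher, 1 in the setting reported, was 0 with 75th percentile scaling, quantile normalization, loess on level, an offset of 0.5 or a 75th percentile level filter, 2 with a 25th percentile level filter (Isg20 and Irf8) and 3 with no level filter (also Oas1a). The number at least 2-fold lower was 1 in all of these settings and 2 with 1.5-fold in place of 2-fold. Measured members above 0 numbered 2 of the 4 that remained with the 75th percentile level filter, and lay between 7 and 10 of 18 under the other scalings. Their median of 0.04 was below 0 under 75th percentile scaling (-0.07), quantile normalization (-0.02), loess on level (-0.01) and each of the 3 other level filters (-0.06 to -0.03), so its sign depends on the setting. The brightest-probe setting cannot move a member's difference, since each has 1 probe. Equal 75th percentiles put the median of all measured genes at -0.0023 in place of 0.11, and the split of all 2-fold calls at 52 higher and 24 lower in place of 75 and 15. With no level filter that split was 496 and 420, from dim probes. No member past 2-fold changed sign.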
